A study of Mus musculus with 27 samples.

Results

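The coagulation and fibrinolysis genes described here are 35 mouse genes for clotting factors, their inhibitors, the enzymes that dissolve clots, and proteins that modify or export clotting factors. They were chosen by gene symbol, matched through the GENCODE M21 annotation to the gene identifiers of a table of estimated read counts. Of the 35 genes, 34 had a row among the 43346 genes of the table, and 33 were among the 14482 genes that passed a filter on low counts. No row was matched to Klkb1, the gene of plasma prekallikrein, and it was not analysed here. Plat, the gene of tissue-type plasminogen activator, did not pass the filter: 129S1/SvImJ replicate 1 held 7 counts and the other 26 libraries held 0 to 4.

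The RNA came from liver hepatocytes of female mice aged 12 weeks, with 3 libraries from each of 9 inbred strains. The wild-derived strains were WSB/EiJ, PWK/PhJ and CAST/EiJ, and the laboratory strains were NZO/HlLtJ, A/J, NOD/ShiLtJ, 129S1/SvImJ, DBA/2J and C57BL/6J. The labels name no treatment, and they call the libraries of a strain biological replicates without stating whether different mice gave them, so p-values here measure the spread between these libraries. The study sets differences in histone marks between the strains beside expression, and only expression is analysed here.

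Blood clots when a cascade of proteases, most of them made by hepatocytes and secreted as inactive precursors, turns prothrombin into thrombin, and thrombin turns fibrinogen into fibrin. Several of these proteases and their inhibitors need the vitamin K cycle, which carboxylates them in the endoplasmic reticulum before export. The inhibitors antithrombin, tissue factor pathway inhibitor and the protein C system limit clotting, and plasmin, made from hepatocyte plasminogen, dissolves the fibrin.

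Library totals ran from 17015942 to 35078485 estimated counts, so that 1 count was worth 0.0253 to 0.0516 CPM (counts scaled to a common library size after TMM, an edgeR normalization that assumes most genes do not differ). TMM factors ran from 0.722 to 1.23, and albumin took 9.17% to 19.3% of counts. The 10 hepatocyte markers, among them Alb, Ttr and Apoa1, summed to between 126500 and 368000 CPM in every library, which fits the labelled cell type. Markers of other liver cells were present at low levels: 10 Kupffer cell markers (macrophages of the liver) summed to 34.1 to 386.9 CPM and 10 endothelial markers to 63.2 to 787.6 CPM, with none at 0 in any strain. In bulk RNA, fewer cells of a type and less RNA per cell cannot be told apart.

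Levels of the genes, taken per kilobase of exon so that genes can be compared, spanned several orders of magnitude. The fibrinogen genes were at the top, with means over the 27 libraries of 2363 (Fgg), 2097 (Fga) and 1523 (Fgb) CPM per kilobase, followed by Plg at 1101 and Kng1 at 998 CPM per kilobase. Most proteases lay between, from F2 at 543 to F11 at 42.8 CPM per kilobase. Genes known mainly from endothelial or other cells were at the bottom: F3 at 1.37, Tfpi at 0.50, Plau at 0.21, Thbd at 0.20 and Serpina5 at 0.18 CPM per kilobase.

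All 33 genes tested differed among the strains (edgeR quasi-likelihood F test, Benjamini-Hochberg adjusted p under 0.05, the threshold for every call below), where 74.2% of all genes tested did. That excess depended on the scaling of the libraries, described below: with library totals 27 genes (81.8%) were called against 82.2% of all genes, and with scaling on the median of the list 26 (78.8%) against 84% of all genes. Kng1, Serpina10, Proc, Plg and Serpinf2 lost the call under both, F10 with library totals, and Ggcx and Lman1 with the list median. The median ratio of the highest to the lowest strain mean was 2.2 for these genes and 2.27 for all genes tested. A ratio of at least 2-fold with a call was found for 25 of the 33 genes and for 7148 of the 14482 genes tested. Strain accounted for a median of 75.4% of the variance of log2 CPM among these genes and 66.6% among all genes tested. Under TMM, WSB/EiJ held the highest mean of 15 genes and A/J of 10. NZO/HlLtJ held the lowest of 16, CAST/EiJ of 8 and 129S1/SvImJ of 5. The matching shares of all genes tested were not computed. The heatmap shows the columns of these strains, and single genes that break from them.

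**Figure D1:**
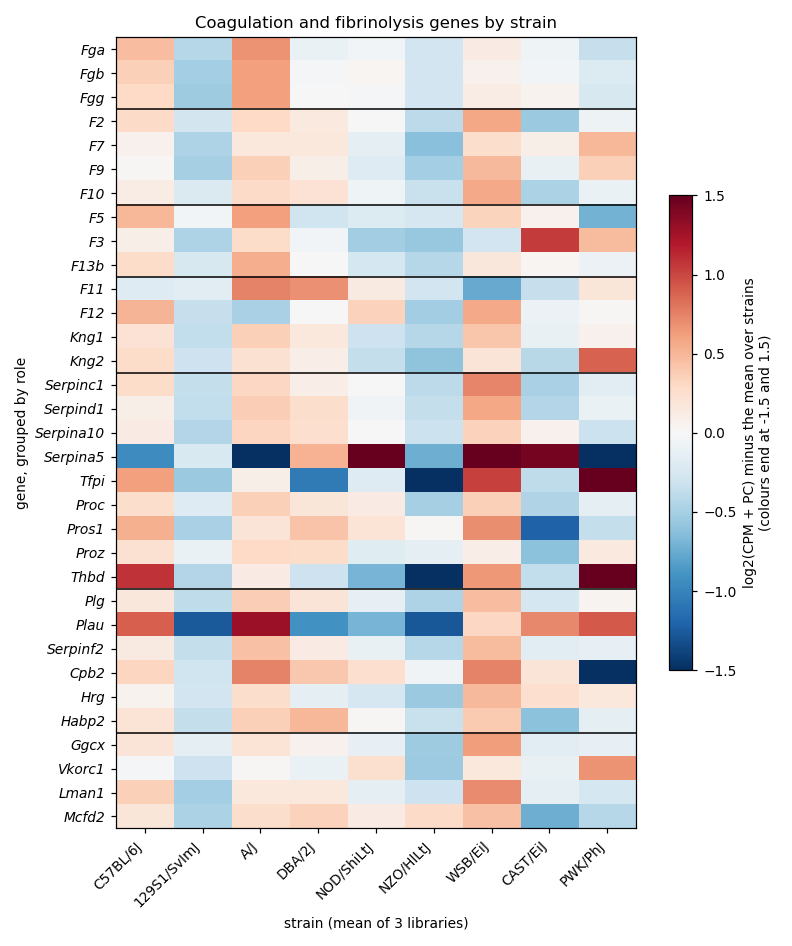
Strain means (n = 3 libraries) of the 33 genes tested, as log2(CPM + 0.1) minus the mean of the 9 strains, grouped by role with lines between groups; red is higher and blue lower. The A/J and WSB/EiJ columns are mostly red and the NZO/HlLtJ and 129S1/SvImJ columns mostly blue, while F11 in WSB/EiJ and F12 in A/J go against most genes of their columns and Cpb2 in PWK/PhJ is far below most genes of its column.

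To find which strains stood apart, each strain was compared with the mean of the other 8. These 9 comparisons share their libraries and are not independent. Much of what they called was movement of the whole list, and its size depended on how libraries were scaled, so each count is given under 3 scalings. The first is TMM. The second uses library totals, which moved the median log2 fold change of all genes by up to 0.35. The third, scaling on the median of the coagulation genes, shows which of them departed from the rest of the list. It centres the list by construction, so its counts say nothing of the balance of higher and lower genes. It moved the median of all genes by up to 0.51, and both added scalings were chosen after the data were seen. A percentage in parentheses after a count of higher or lower genes is the share of all genes tested that was called in that direction under the same setting.

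In WSB/EiJ, 19 genes, among them F2, Serpinc1 and Plg, were higher (15.5%) and 1, F11, was lower (9.23%). The median log2 fold change of the list was 0.53 and that of all genes 0.00. With library totals 11 were higher (7.65%) and 2 lower (31%), and relative to the rest of the list 5 were higher (5.74%) and 9 lower (39.3%). Of the 19 higher genes, 5 were called under all 3 scalings: Cpb2, Lman1, Serpina5, Serpinc1 and Tfpi. A/J had 13 higher genes (15.9%) and 1 lower, F12 (11.6%), with a list median of 0.35. Both other scalings gave 8 higher (6.96% with library totals and 5.59% with the list median) and 2 lower (28.3% and 20%). Cpb2, F11, F13b, F5, Fga, Fgb, Fgg and Plau were higher in A/J under all 3. With the Kupffer and endothelial list means as covariates in the edgeR fit, 7 genes were higher in A/J (9.94%) and 24 in WSB/EiJ (20.1%). Without A/J replicate 3 the TMM count was 6 higher, and without replicate 1 or replicate 2 no gene was lower. The summed hepatocyte markers, most of which is albumin, were also highest in these strains, at 271200 to 368000 CPM in A/J and 250400 to 272100 in WSB/EiJ, and their part in the counts was not tested. Not every marker followed the sum: Cps1 (3354 CPM) and Tat (778 CPM, not called for strain) had their lowest strain means in A/J, and Hpx was highest in PWK/PhJ.

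NZO/HlLtJ was the reverse under TMM, with 18 lower genes (12.9%), 0 higher (14.8%) and a list median of -0.45. By edgeR 1 gene was higher at an unadjusted p under 0.05 (share of all genes not computed), and DESeq2 called 0 (15%). With library totals 9 were lower (6.54%) and 2 higher (35.3%), and relative to the rest of the list 3 were lower (4.49%) and 4 higher (42.9%). F7, Tfpi and Thbd were lower under all 3 scalings. The Thbd call was lost without NZO/HlLtJ replicate 1 (log2 fold change -1.77, edgeR adjusted p = 0.0524). Without NZO/HlLtJ replicate 1 the count of lower genes was 8, and without replicate 2 it was 9. The hepatocyte marker sum was low there, at 129500 to 136400 CPM, as were the endothelial (63.2 to 106.6 CPM) and Kupffer (39.4 to 109.2 CPM) sums.

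In 129S1/SvImJ 10 genes were lower (7.86%) and 0 higher (10.5%), with a list median of -0.41. At an unadjusted p under 0.05 edgeR put 22 lower and 0 higher, a threshold at which the share of all genes was not computed. DESeq2 called 17 lower (10.8%) and 0 higher (10.6%). With library totals 4 were lower (4.83%) and 0 higher (21.1%), and relative to the rest of the list 0 were lower (3.1%) and 3 higher (40.2%), so no call was made under all 3 scalings. The count of 10 was 1 without 129S1/SvImJ replicate 1 and 2 without replicate 2. Its hepatocyte marker sum was 137200 to 165100 CPM, and its Kupffer sum, at 42.7 to 89.6 CPM, had the lowest median of all strains. With the cell marker covariates 2 genes were lower in 129S1/SvImJ (4.56%) and 2 in NZO/HlLtJ (4.76%).

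In CAST/EiJ and PWK/PhJ most calls were made under all 3 scalings. In CAST/EiJ 10 genes were lower (17.8%) and 2, F3 and Serpina5, were higher (20.1%), with a list median of -0.17. Both of the higher calls and 8 of the lower ones (F10, F2, Habp2, Mcfd2, Pros1, Proz, Serpinc1 and Serpind1) were made under all 3 scalings. With library totals 8 were lower (11.3%) and 8 higher (30.8%), and relative to the rest of the list 10 were lower (10.6%) and 6 higher (20.6%). The hepatocyte marker sum, at 126500 to 137600 CPM, and the Kupffer sum, at 58.6 to 69.2 CPM, were also low in CAST/EiJ, and the part of the hepatocyte sum was not tested. With the cell marker covariates 3 genes were higher (16.8%) and 8 lower (15.1%): F10, Proc and Serpina5 were not called, while Plau and Hrg were called higher. The Serpina5 call also rested on CAST/EiJ replicate 1 (log2 fold change -0.30 without it). With replicate numbers as a block in the fit, 4 genes were lower (10%) and 1 higher (12%). F2, F10, Serpinc1, Serpind1, Kng2, Proc and Serpina5 were then not called in CAST/EiJ.

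In PWK/PhJ 7 genes (F7, F9, Kng2, Plau, Tfpi, Thbd and Vkorc1) were higher (19.4%) and 3 (Cpb2, F5 and Mcfd2) lower (14.8%), with a list median of -0.11, and each of these calls was made under all 3 scalings. Library totals gave 7 higher (18.9%) and 5 lower (11.6%), and the list median 9 higher (20%) and 3 lower (8.25%). Without PWK/PhJ replicate 1, which had the highest endothelial sum of all libraries at 787.6 CPM, 4 were higher and 7 lower. With the cell marker covariates 3 were higher (13.9%) and 16 lower (14.1%).

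The other strains had few calls. C57BL/6J had 6 higher genes, F12, F5, Fga, Lman1, Pros1 and Thbd (11.6%), and 0 lower (6.5%), with a list median of 0.26. At an unadjusted p under 0.05 edgeR put 0 lower (share of all genes not computed), and DESeq2 called 0 lower (8.66%). Library totals gave 4 higher (7.43%) and 1 lower (7.6%), the list median 2 higher (4.92%) and 1 lower (6.52%), and the cell marker covariates 0 higher (4.18%). Leaving out single libraries moved the 6 to 11 (C57BL/6J replicate 1, or PWK/PhJ replicate 1), 3 (C57BL/6J replicate 2) or 0 (C57BL/6J replicate 4). The Kupffer markers were high in C57BL/6J, at 203 to 281.1 CPM.

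DBA/2J had 3 higher genes, Cpb2, F11 and Habp2 (9.5%), and 1 lower, Tfpi (3.77%), and all 4 calls were made under all 3 scalings. Library totals gave 3 higher (8.15%) and 2 lower (3.13%), the list median 3 higher (6.31%) and 3 lower (3.16%), and the cell marker covariates 11 higher (13%). The 3 became 1 without DBA/2J replicate 2 or 3, 7 without DBA/2J replicate 4 and 5 without A/J replicate 3, and the call of Tfpi was lost without DBA/2J replicate 3 or 4. NOD/ShiLtJ had 1 higher gene, Serpina5 (9.2%), and 0 lower (5.72%). There edgeR put 3 lower at an unadjusted p under 0.05 (share of all genes not computed), and DESeq2 called 1 lower (7.5%). Library totals gave 4 higher (10.8%) and 0 lower (3.83%), the list median 4 higher (7.81%) and 2 lower (3.34%), and the cell marker covariates 2 higher (11.3%) and 2 lower (7.08%). The higher count was 0 without NOD/ShiLtJ replicate 2 and 2 without PWK/PhJ replicate 1, and 1 gene was lower without C57BL/6J replicate 1 or without DBA/2J replicate 4.

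**Figure D2:**
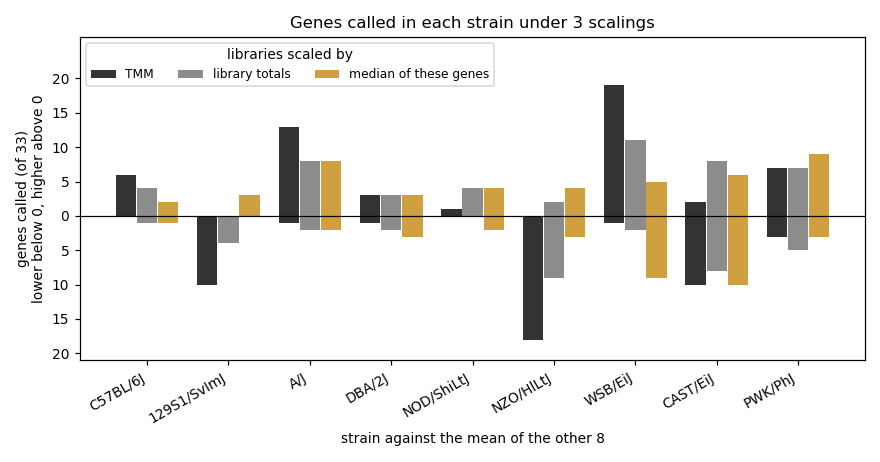
Number of the 33 genes called higher (bars above 0) or lower (bars below 0) in each strain against the mean of the other 8, by edgeR at an adjusted p under 0.05, with libraries scaled by TMM, by library totals or on the median of these genes. In WSB/EiJ the 19 higher genes under TMM become 5 higher and 9 lower relative to the rest of the list, a scaling that centres the list by construction; in PWK/PhJ the bars differ little.

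Of the 95 calls of a gene in a strain under TMM, 45 in 26 genes were made in the same direction under all 3 scalings. Of these, 28 calls in 21 genes were also made in each of the 27 fits that left out 1 library. With the cell marker covariates 25 of the 28 were made too. The share of all genes whose calls held in these ways was not computed, and the list median scaling is set by these same genes. The 25 were Cpb2, F11, F13b, F5 and Fga higher in A/J, Cpb2, Lman1, Serpina5, Serpinc1 and Tfpi higher and F11 lower in WSB/EiJ, and F3 higher and F2, Habp2, Mcfd2, Pros1, Proz and Serpind1 lower in CAST/EiJ. In PWK/PhJ they were Kng2, Tfpi and Vkorc1, higher, and Cpb2 and F5, lower. The last were F11, higher in DBA/2J, and Tfpi, lower in NZO/HlLtJ. Of the 25, F2 and Serpind1 in CAST/EiJ were not called with the replicate block. Values in CPM and log2 fold changes are under TMM unless another scaling is named.

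The fibrinogen chains, which thrombin converts to fibrin, were highest in A/J and lowest in 129S1/SvImJ. Fga (ENSMUSG00000028001) measured 10750, 6998 and 11540 CPM in the A/J libraries and 5138, 3804 and 4663 CPM in 129S1/SvImJ. Fgb (ENSMUSG00000033831) measured 8606, 7033 and 10360 CPM in A/J and 4417, 3286 and 4243 CPM in 129S1/SvImJ. Fgg (ENSMUSG00000033860) measured 7842, 5434 and 8937 CPM in A/J and 3656, 2787 and 3593 CPM in 129S1/SvImJ. For each chain all A/J libraries lay above all 129S1/SvImJ libraries, although A/J replicate 2 overlapped libraries of C57BL/6J. The strain means differed 2.15-fold (Fga), 2.18-fold (Fgb) and 2.21-fold (Fgg), with edgeR adjusted p-values for strain of 0.00251, 0.00338 and 0.00484. Against the other 8 strains, A/J was higher by 0.76 ± 0.17 (SE) for Fga (edgeR adjusted p = 0.00181), 0.69 ± 0.16 for Fgb (0.00211) and 0.69 ± 0.16 for Fgg (0.00266) on the log2 scale. Relative to the rest of the list these were 0.40, 0.33 and 0.33, with edgeR adjusted p of 0.0238, 0.0337 and 0.0482. Without A/J replicate 3 the calls of Fgb (0.54, edgeR adjusted p = 0.0557) and Fgg (0.53, adjusted p = 0.0676) were lost. Counts of Fgg were not whole in 20 libraries, and exons of Gm30097 overlap it on the opposite strand.

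The chains moved as one across strains. Over the 9 strain means of log2 CPM, Pearson's r was 0.978 for Fga with Fgb, 0.969 for Fga with Fgg and 0.991 for Fgb with Fgg, with Spearman's rho of 0.967, 0.933 and 0.933. The exact permutation p-values of r, adjusted over the 8 partner pairs computed, were 0.000121, 0.000121 and 0.000125; those of rho, unadjusted, were 0.000165, 0.00075 and 0.00075. Without the 2 strains farthest from the median r was 0.928, 0.948 and 0.969. The points of each pair share their libraries and scaling, so part of r is common to the list. Among libraries of the same strain the deviations of the chains also went together, with r of 0.970, 0.974 and 0.980. Other pairs did so too, at 0.943 for F7 with F10, 0.895 for Kng1 with Kng2 and 0.878 for Lman1 with Mcfd2. Proz with Serpina10 had 0.699 and Ggcx with Vkorc1 0.563, so such movement was not particular to fibrinogen.

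**Figure D3:**
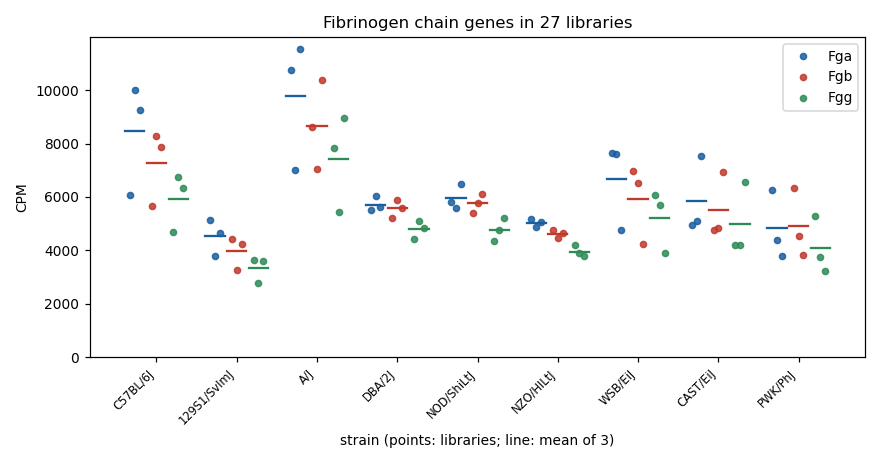
CPM of Fga, Fgb and Fgg in each of 27 libraries (points), with the mean of the 3 libraries of each strain (lines). In every strain Fga, Fgb and Fgg follow each other; A/J is highest at means of 9762, 8665 and 7404 CPM and 129S1/SvImJ lowest at 4535, 3982 and 3345 CPM.

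The 3 genes are neighbours on chromosome 3 (GRCm38), with Fgg at 83007724 to 83015049, Fga at 83026076 to 83033627 and Fgb, on the other strand, at 83040141 to 83049863. Because they moved together, their promoter windows are shown, each running from 250 bases before the RefSeq start of transcription to 50 after it, on the strand of the gene (GRCm38.p6, the C57BL/6J reference; the alleles of the other strains are not included). The gene positions above are those of GENCODE, and for Fga the RefSeq start lies inside the GENCODE gene, so distances are counted from the RefSeq start. Capitals mark matches, on either strand, to 4 motifs of liver transcription factors: GTTAAT of HNF1, TTNNGNAA of C/EBP, CTGGGA of the acute phase element bound by STAT3, and CAAAG, part of the HNF4 site.
Fga, chr3:83025903-83026202: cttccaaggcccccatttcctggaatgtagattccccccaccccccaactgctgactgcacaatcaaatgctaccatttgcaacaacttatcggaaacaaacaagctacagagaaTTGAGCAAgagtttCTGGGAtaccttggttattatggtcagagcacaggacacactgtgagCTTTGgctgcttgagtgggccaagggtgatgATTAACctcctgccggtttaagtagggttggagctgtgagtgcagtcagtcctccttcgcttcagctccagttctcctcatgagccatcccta
Fgb, chr3:83049814-83050113: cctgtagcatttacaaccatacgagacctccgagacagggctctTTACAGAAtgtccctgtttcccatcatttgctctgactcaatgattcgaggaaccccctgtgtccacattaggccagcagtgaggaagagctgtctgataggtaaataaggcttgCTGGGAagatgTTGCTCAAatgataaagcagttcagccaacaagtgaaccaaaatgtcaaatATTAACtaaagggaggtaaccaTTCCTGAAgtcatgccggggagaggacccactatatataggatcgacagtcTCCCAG
Fgg, chr3:83007474-83007773: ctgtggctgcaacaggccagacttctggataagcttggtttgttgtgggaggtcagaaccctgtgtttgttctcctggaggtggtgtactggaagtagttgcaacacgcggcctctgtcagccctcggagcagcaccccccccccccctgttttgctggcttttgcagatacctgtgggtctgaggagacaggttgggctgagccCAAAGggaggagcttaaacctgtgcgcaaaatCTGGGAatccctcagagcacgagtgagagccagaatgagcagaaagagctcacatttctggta
GTTAAT matched the other strand of Fga 43 bases and of Fgb 29 bases before the start, and was not in the Fgg window. CTGGGA was in all 3 windows, 121, 91 and 13 bases before the start of Fga, Fgb and Fgg, and again 45 bases after the start of Fgb. No matches of different motifs overlapped in these windows. A window was found for 27 of the 35 genes (28 windows). GTTAAT was in 21.4% of them and in 7.10% of the 32851 windows of all genes, TTNNGNAA in 60.7% and 40.7%, CTGGGA in 46.4% and 31.8%, and CAAAG in 75.0% and 53.9%. A match is a description of letters and not a binding site.

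The vitamin K-dependent clotting proteases had their highest strain means in WSB/EiJ or PWK/PhJ and their lowest in NZO/HlLtJ or CAST/EiJ. F2, prothrombin (ENSMUSG00000027249), measured 3822, 3628 and 3421 CPM in WSB/EiJ and 1629, 1730 and 1575 CPM in CAST/EiJ, a 2.20-fold difference of means (edgeR adjusted p for strain = 0.000657). All CAST/EiJ libraries lay below every library of the other strains. WSB/EiJ was higher than the other strains by 0.65 ± 0.15 on the log2 scale (edgeR adjusted p = 0.00174), but by 0.16 (adjusted p = 0.0851) relative to the rest of the list. In CAST/EiJ F2 was lower by -0.63 ± 0.16 (edgeR adjusted p = 0.00390). It was called lower under all 3 scalings, but not with replicate numbers as a block in the fit.

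F7, the protease that tissue factor activates (ENSMUSG00000031443), measured 362.5, 240.7 and 208.7 CPM in PWK/PhJ and 117.1, 123.0 and 129.5 CPM in NZO/HlLtJ, a 2.20-fold difference (edgeR adjusted p for strain = 0.000888). The groups did not overlap, but PWK/PhJ replicate 1 stood well above the other PWK/PhJ libraries. NZO/HlLtJ was lower by -0.71 ± 0.16 (edgeR adjusted p = 0.00233), by -0.40 with library totals and -0.25 relative to the rest of the list, each still called. With the cell marker covariates it was -0.37 (edgeR adjusted p = 0.0674). The PWK/PhJ excess of 0.57 was 0.30 (edgeR adjusted p = 0.176) without PWK/PhJ replicate 1.

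F10, the protease that makes thrombin (ENSMUSG00000031444), measured 865.2, 913.1 and 883.6 CPM in WSB/EiJ and 419.3, 424.8 and 453.1 CPM in CAST/EiJ, a 2.05-fold difference (edgeR adjusted p for strain = 0.00229). The WSB/EiJ log2 fold change was 0.64 ± 0.15 (edgeR adjusted p = 0.00230) and 0.15 (adjusted p = 0.139) relative to the rest of the list. CAST/EiJ was lower under all 3 scalings (-0.53 ± 0.16, edgeR adjusted p = 0.0133), a call lost without CAST/EiJ replicate 1 (adjusted p = 0.0664) or replicate 4 (adjusted p = 0.0600) and with the cell marker covariates (-0.34, adjusted p = 0.0502). F9, the X-linked gene of the factor deficient in haemophilia B, ran from 167 CPM in NZO/HlLtJ to 333.5 CPM in WSB/EiJ (edgeR adjusted p for strain = 2.70e-05). F7 and F10 are neighbours on chromosome 8 (13026034 to 13035809 and 13037308 to 13056676, GRCm38). Their strain means had r = 0.495 (rho = 0.550; exact permutation p = 0.176 and 0.133, adjusted p of r = 0.235), and r was 0.179 without 129S1/SvImJ and NZO/HlLtJ.

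Among the cofactors, factor V and tissue factor each set a wild-derived strain apart. F5 (ENSMUSG00000026579), the cofactor of factor X on platelets, measured 924.7, 974.5 and 1130 CPM in A/J and 497.3, 375.8 and 338.4 CPM in PWK/PhJ, a 2.50-fold difference (edgeR adjusted p for strain = 1.12e-05). These groups were well apart, and PWK/PhJ touched only the lower libraries of neighbouring strains. PWK/PhJ was lower than the other strains by -0.80 ± 0.14 on the log2 scale (edgeR adjusted p = 0.000106), by -0.78 with library totals and by -0.70 relative to the rest of the list. A/J was higher by 0.69 ± 0.13 (edgeR adjusted p = 0.000229). Counts of F5 were not whole in any of the 27 libraries, and exons of Gm16548 overlap it on the opposite strand.

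F3, tissue factor (ENSMUSG00000028128), which starts the cascade and is low in hepatocytes, measured 6.33, 5.89 and 8.25 CPM in CAST/EiJ and 1.99, 2.58 and 1.89 CPM in NZO/HlLtJ, a 3.17-fold difference (edgeR adjusted p for strain = 0.00161). CAST/EiJ was higher than the others by 1.21 ± 0.24 on the log2 scale (edgeR adjusted p = 0.000245), by 1.44 with library totals and by 1.41 relative to the rest of the list. PWK/PhJ spread widely, at 6.87, 4.74 and 1.99 CPM. Its highest library and the highest of A/J (5.94 CPM) reached into the range of CAST/EiJ, and all other libraries lay below it. F13b, the carrier subunit of the factor that cross-links fibrin, ran from 185 CPM in NZO/HlLtJ to 364 CPM in A/J. It was higher in A/J by 0.62 ± 0.11 (edgeR adjusted p = 0.000307), and by 0.27 relative to the rest of the list (adjusted p = 0.0370).

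The contact system, in which factor XII and kininogen start clotting on charged surfaces, held genes that went against the list in WSB/EiJ and in A/J. F11 (ENSMUSG00000031645) measured 137.7, 127.8 and 191.0 CPM in A/J, 160.7, 166.5 and 111.8 CPM in DBA/2J and only 57.3, 50.3 and 53.7 CPM in WSB/EiJ. It was the only gene of the list lower in WSB/EiJ under TMM. The means of A/J and WSB/EiJ differed 2.83-fold (edgeR adjusted p for strain = 8.79e-06). A/J was higher by 0.83 ± 0.14 on the log2 scale (edgeR adjusted p = 0.000120) and DBA/2J by 0.77 ± 0.14 (edgeR adjusted p = 0.000394), and both calls and the lower level in WSB/EiJ were made under all 3 scalings and with each library left out. Relative to the rest of the list the A/J difference was 0.46.

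F12 (ENSMUSG00000021492), the protease that activates factor XI, measured 793.9, 748.5 and 731.7 CPM in WSB/EiJ and 363.3, 324.6 and 381.2 CPM in NZO/HlLtJ, a 2.13-fold difference (edgeR adjusted p for strain = 0.000163). WSB/EiJ was higher by 0.64 ± 0.15 on the log2 scale (edgeR adjusted p = 0.00220) but by 0.15 (adjusted p = 0.190) relative to the rest of the list. In A/J, where most of the list was high, F12 measured 291.9, 352.1 and 446.0 CPM. It was the only gene lower there under TMM (-0.55 ± 0.16, edgeR adjusted p = 0.0151), a call lost without A/J replicate 1 (adjusted p = 0.108) or replicate 2 (adjusted p = 0.0664). In C57BL/6J it was higher by 0.58 ± 0.15 (edgeR adjusted p = 0.00792), and not without C57BL/6J replicate 4 (0.48, adjusted p = 0.108).

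Kng2 (ENSMUSG00000060459), a kininogen gene, measured 935.5, 657.7 and 542.3 CPM in PWK/PhJ and 235.3, 264.8 and 257.0 CPM in NZO/HlLtJ, a 2.82-fold difference (edgeR adjusted p for strain = 1.16e-05). Every PWK/PhJ library lay above every library of the other strains. PWK/PhJ was higher by 1.00 ± 0.14 on the log2 scale (edgeR adjusted p = 3.14e-06), by 1.08 relative to the rest of the list, and by 0.46 (edgeR adjusted p = 0.0287) with the cell marker covariates. Kng1, its neighbour and near copy (chromosome 16, Kng1 at 23057865 to 23082078 and Kng2 at 22985854 to 23029482, GRCm38), ran from 2353 CPM in NZO/HlLtJ to 4220 CPM in WSB/EiJ, with PWK/PhJ at 3329 ± 999 CPM (SD, n = 3). Its WSB/EiJ excess of 0.46 ± 0.16 (edgeR adjusted p = 0.0362) was -0.03 (adjusted p = 0.787) relative to the rest of the list, and was lost without WSB/EiJ replicate 2 (0.37, adjusted p = 0.202) or replicate 3 (0.44, adjusted p = 0.138). Counts of both genes were not whole in any library, so how reads were split between the copies is uncertain. Over the strain means r was 0.684 (rho = 0.700; exact permutation p = 0.0416 and 0.0433, adjusted p of r = 0.0831), and 0.491 without 129S1/SvImJ and NZO/HlLtJ.

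**Figure D4:**
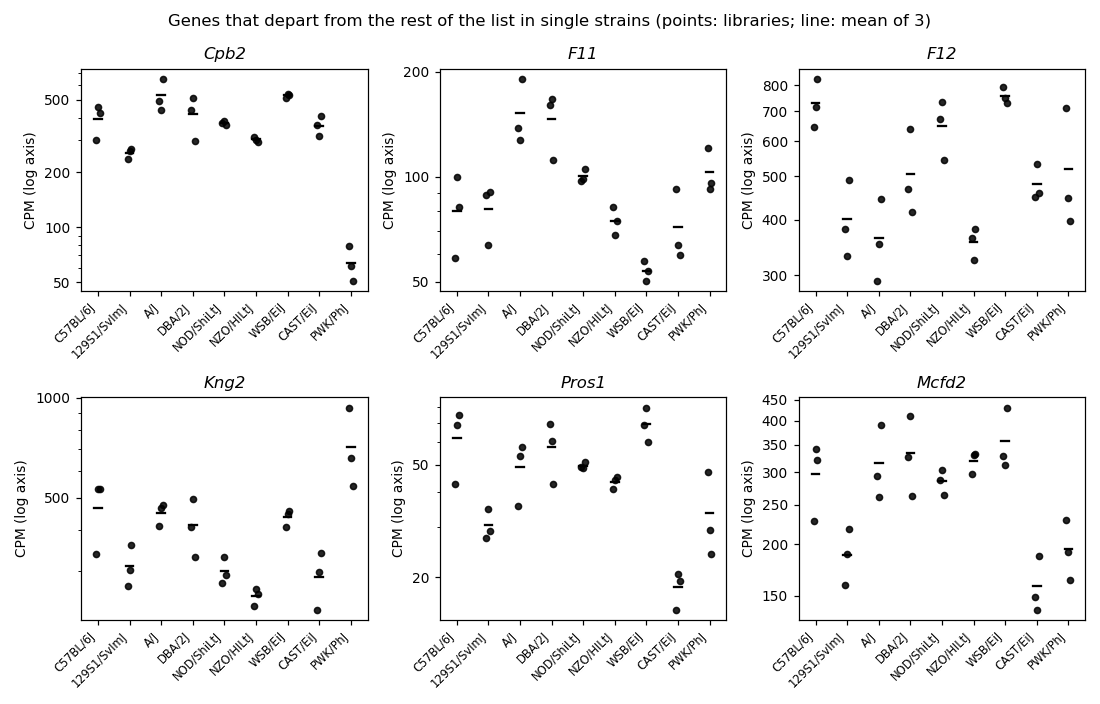
CPM on log axes of Cpb2, F11, F12, Kng2, Pros1 and Mcfd2 in each of 27 libraries (points) with strain means of 3 libraries (lines); the genes were picked for display after their values were seen. Cpb2 is at 50.9 to 79.3 CPM in PWK/PhJ and above 238 CPM in every other library; F11 is lowest in WSB/EiJ, Kng2 highest in PWK/PhJ, and Pros1 and Mcfd2 lowest in CAST/EiJ.

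Of the plasma inhibitors and their cofactors, Serpinc1, Serpind1 and Pros1 were higher in WSB/EiJ and lower in CAST/EiJ, and Proz was lower in CAST/EiJ and not called in WSB/EiJ. The call of Serpinc1 in CAST/EiJ was lost without CAST/EiJ replicate 1 (edgeR adjusted p = 0.0509). Serpinc1, antithrombin (ENSMUSG00000026715), measured 5413, 5703 and 5794 CPM in WSB/EiJ and 2416, 2467 and 2425 CPM in CAST/EiJ, a 2.31-fold difference (edgeR adjusted p for strain = 0.000192). All WSB/EiJ libraries lay above every other library. WSB/EiJ was higher by 0.82 ± 0.15 on the log2 scale (edgeR adjusted p = 0.000150), by 0.48 with library totals and by 0.33 relative to the rest of the list, each still called. Zbtb37 overlaps Serpinc1 on the opposite strand, and its counts were not whole in any library. Serpind1, heparin cofactor (ENSMUSG00000022766), measured 1329, 1453 and 1344 CPM in WSB/EiJ and 684.7, 667.6 and 683.8 CPM in CAST/EiJ, a 2.03-fold difference (edgeR adjusted p for strain = 7.98e-05). WSB/EiJ was higher by 0.65 ± 0.12 (edgeR adjusted p = 0.000283), and by 0.16 (adjusted p = 0.0923) relative to the rest of the list. The lower level of Serpind1 in CAST/EiJ (-0.49 ± 0.14, edgeR adjusted p = 0.00575) was called under all 3 scalings, but not with the replicate block.

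Pros1, protein S (ENSMUSG00000022912), the cofactor of activated protein C, had the largest ratio of strain means among the inhibitors other than Tfpi, Thbd and Serpina5. It measured 69.0, 79.5 and 59.9 CPM in WSB/EiJ and 15.4, 20.6 and 19.3 CPM in CAST/EiJ, a 3.77-fold difference of means (edgeR adjusted p for strain = 6.44e-06). All CAST/EiJ libraries lay below every other library. In WSB/EiJ Pros1 was called higher under TMM but not relative to the rest of the list. In CAST/EiJ it was lower by -1.37 ± 0.20 on the log2 scale (edgeR adjusted p = 4.27e-06), by -1.14 with library totals and by -1.16 relative to the rest of the list. Proz, the cofactor of the protein Z-dependent inhibitor, was also lower in CAST/EiJ than in every library of the other strains, at 246.5, 263.9 and 255.9 CPM (-0.70 ± 0.14, edgeR adjusted p = 0.000363), and its strain means ran to 482 CPM in A/J. Serpina10, the inhibitor that binds protein Z, ran from 216 CPM in 129S1/SvImJ to 372.5 CPM in WSB/EiJ. Its 129S1/SvImJ difference of -0.50 ± 0.17 (edgeR adjusted p = 0.0430) was called in 14 of the 27 fits that left out 1 library, and was -0.43 (adjusted p = 0.209) without 129S1/SvImJ replicate 1 or replicate 2. Relative to the rest of the list it was -0.07 (edgeR adjusted p = 0.629). Proz and Serpina10 had r = 0.336 over strain means (rho = 0.467; exact permutation p = 0.394 and 0.213, adjusted p of r = 0.394), and 0.750 without CAST/EiJ and NOD/ShiLtJ. Proc, protein C, was called lower in CAST/EiJ, but not without CAST/EiJ replicate 1, 4 or 5 (edgeR adjusted p = 0.0816, 0.0559 and 0.123), with library totals or with the cell marker covariates (-0.29, edgeR adjusted p = 0.105). It ran from 361 CPM in NZO/HlLtJ to 656.5 CPM in A/J. Its NZO/HlLtJ difference of -0.56 ± 0.18 (edgeR adjusted p = 0.0197) was lost without NZO/HlLtJ replicate 1 (adjusted p = 0.0736) or replicate 2 (adjusted p = 0.126), and was -0.10 (adjusted p = 0.432) relative to the rest of the list and -0.20 (adjusted p = 0.422) with the cell marker covariates.

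Tfpi and Thbd are known for their place on endothelium, where tissue factor pathway inhibitor blocks the start of the cascade and thrombomodulin turns thrombin towards protein C. Tfpi (ENSMUSG00000027082) measured 14.4, 5.84 and 4.91 CPM in PWK/PhJ and 0.586, 0.683 and 0.738 CPM in NZO/HlLtJ, a 12.5-fold difference (edgeR adjusted p for strain = 2.20e-06) that was 8.04-fold without PWK/PhJ replicate 1. The groups were far apart, PWK/PhJ replicate 1 was the highest library, and WSB/EiJ, at 3.45 to 5.24 CPM, overlapped the lowest of PWK/PhJ. PWK/PhJ was higher by 2.28 ± 0.27 on the log2 scale (edgeR adjusted p = 3.01e-07) and NZO/HlLtJ lower by -1.81 ± 0.40 (edgeR adjusted p = 0.00160). Thbd ran from 0.138 CPM in NZO/HlLtJ, with 1, 9 and 5 counts in its libraries, to 1.89 CPM in PWK/PhJ, with 61, 58 and 37 counts (edgeR adjusted p for strain = 0.000326). PWK/PhJ was higher by 1.93 ± 0.37 (edgeR adjusted p = 0.000238). The endothelial markers followed the same order at both ends, with 239 to 787.6 CPM in PWK/PhJ and 63.2 to 106.6 CPM in NZO/HlLtJ. With the cell marker covariates the PWK/PhJ difference was 0.69 (edgeR adjusted p = 0.0389) for Tfpi and 0.62 (edgeR adjusted p = 0.403) for Thbd. The NZO/HlLtJ differences were then -0.77 (edgeR adjusted p = 0.0292) and -1.34 (edgeR adjusted p = 0.108).

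**Figure D5:**
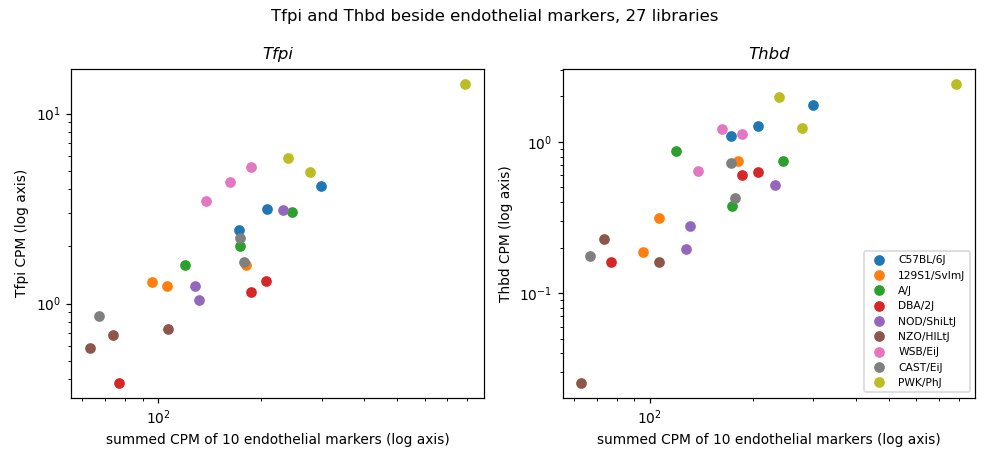
CPM of Tfpi and Thbd against the summed CPM of 10 endothelial markers in 27 libraries, coloured by strain, all axes logarithmic. Both genes are high in PWK/PhJ (Tfpi 4.91 to 14.4 CPM) and low in NZO/HlLtJ (Tfpi 0.586 to 0.738 CPM), and libraries with high marker sums have high levels of both; DBA/2J lies low in Tfpi for its marker sums and WSB/EiJ high.

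Serpina5, the protein C inhibitor, which is known as a gene of the reproductive tract in mice, was near the limit of detection. It had 0 counts in all 3 A/J and all 3 PWK/PhJ libraries and 15, 49 and 27 counts in NOD/ShiLtJ, where the mean was 1.04 CPM. Against a floor of 3 counts in each PWK/PhJ library (0.107 CPM) the NOD/ShiLtJ mean was at least 9.69-fold higher, where the floor covers counting error only. WSB/EiJ was even among its libraries, at 21, 19 and 25 counts. The CAST/EiJ libraries held 76, 2 and 2 counts, and the CAST/EiJ call rested on replicate 1: without it the log2 fold change was -0.30 (edgeR adjusted p = 0.826), and with the cell marker covariates it was 1.71 (edgeR adjusted p = 0.272). The NOD/ShiLtJ call was lost without NOD/ShiLtJ replicate 2 (edgeR adjusted p = 0.0780).

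In the fibrinolysis group, Cpb2 in PWK/PhJ had the smallest adjusted p of all 95 calls. Cpb2 (ENSMUSG00000021999) makes the carboxypeptidase also called TAFI, which thrombin activates and which slows the dissolution of fibrin. It measured 79.3, 61.6 and 50.9 CPM in PWK/PhJ and 493.0, 442.4 and 653.8 CPM in A/J, and the other strains had means of 255.8 to 529.6 CPM. No library of another strain came near PWK/PhJ. The highest and lowest strain means differed 8.29-fold (edgeR adjusted p for strain = 1.07e-09), and strain accounted for 95.4% of the variance of log2 CPM. PWK/PhJ was lower by -2.59 ± 0.18 on the log2 scale (edgeR adjusted p = 2.43e-11), by -2.57 with library totals, -2.49 relative to the rest of the list and -2.93 with the cell marker covariates. A/J was higher by 0.84 ± 0.13 (edgeR adjusted p = 4.99e-05).

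Cpb2 lies on chromosome 14 at 75242287 to 75283555 (GRCm38, plus strand). Its promoter window is shown because of this difference in PWK/PhJ, with capitals as for the fibrinogen genes; the sequence is again that of C57BL/6J (RefSeq, GRCm38.p6), and the PWK/PhJ allele was not analysed here.
Cpb2, chr14:75242037-75242336: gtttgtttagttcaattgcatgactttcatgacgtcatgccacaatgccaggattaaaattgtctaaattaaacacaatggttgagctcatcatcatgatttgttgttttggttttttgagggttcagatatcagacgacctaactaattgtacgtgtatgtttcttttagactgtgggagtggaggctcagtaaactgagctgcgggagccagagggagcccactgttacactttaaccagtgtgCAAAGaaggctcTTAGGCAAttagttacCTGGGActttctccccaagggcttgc
CAAAG matched 4 bases before the start, and TTNNGNAA and CTGGGA 9 and 25 bases after it. GTTAAT was not in this window.

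Habp2 (ENSMUSG00000025075), a protease known to cleave factor VII and plasminogen activator precursors, measured 337.9, 397.8 and 236.7 CPM in DBA/2J and 145.2, 144.4 and 160.1 CPM in CAST/EiJ, a 2.16-fold difference (edgeR adjusted p for strain = 0.000164). All CAST/EiJ libraries lay below every other library. CAST/EiJ was lower by -0.70 ± 0.16 on the log2 scale (edgeR adjusted p = 0.00106) and by -0.49 relative to the rest of the list. Exons of Nrap overlap Habp2 on the opposite strand, and its counts were not whole in 19 libraries. Hrg (ENSMUSG00000022877), which binds plasminogen and heparin, measured 1572, 2035 and 1912 CPM in WSB/EiJ and 781.2, 853.8 and 1058 CPM in NZO/HlLtJ, a 2.05-fold difference (edgeR adjusted p for strain = 0.000838). NZO/HlLtJ was lower by -0.62 ± 0.15 (edgeR adjusted p = 0.00361), by -0.17 (adjusted p = 0.119) relative to the rest of the list and by -0.33 (adjusted p = 0.0930) with the cell marker covariates, and the call was lost without NZO/HlLtJ replicate 1 (adjusted p = 0.0524).

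Plau, urokinase (ENSMUSG00000021822), was low throughout, at 1.10, 1.08 and 1.07 CPM in A/J and 0.204, 0.101 and 0.00 CPM in NZO/HlLtJ (24, 23 and 27 counts against 8, 4 and 0). The A/J and NZO/HlLtJ libraries did not overlap and their means differed 10.6-fold (edgeR adjusted p for strain = 0.000925), and 21.3-fold without NZO/HlLtJ replicate 1. A/J was higher by 1.80 ± 0.46 on the log2 scale (edgeR adjusted p = 0.00575), and by 1.16 (edgeR adjusted p = 0.247) with the cell marker covariates. Plg, plasminogen, ran from 2889 CPM in NZO/HlLtJ to 5520 CPM in WSB/EiJ, and Serpinf2, the inhibitor of plasmin, from 1202 to 2236 CPM in the same strains. Their WSB/EiJ differences were 0.53 ± 0.15 each (edgeR adjusted p = 0.00954 and 0.0129), were 0.04 and 0.05 (adjusted p = 0.654 and 0.618) relative to the rest of the list, and were lost without WSB/EiJ replicate 3 (adjusted p = 0.0727 and 0.0885). Exons of Slc22a3 overlap Plg on the opposite strand.

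The last group carboxylates clotting factors or exports them, and all 4 genes differed at least 2-fold. Ggcx (ENSMUSG00000053460), the vitamin K-dependent carboxylase, measured 162.0, 179.2 and 162.6 CPM in WSB/EiJ and 73.9, 76.7 and 74.3 CPM in NZO/HlLtJ, a 2.24-fold difference (edgeR adjusted p for strain = 0.000796). All WSB/EiJ libraries lay above every other library. WSB/EiJ was higher by 0.70 ± 0.13 on the log2 scale (edgeR adjusted p = 0.000332) and by 0.21 (adjusted p = 0.106) relative to the rest of the list. Vkorc1 (ENSMUSG00000096145), the reductase that recycles vitamin K and the target of warfarin, measured 290.5, 234.4 and 208.1 CPM in PWK/PhJ and 107.9, 107.3 and 99.7 CPM in NZO/HlLtJ, a 2.33-fold difference (edgeR adjusted p for strain = 7.38e-05). PWK/PhJ was higher by 0.76 ± 0.12 (edgeR adjusted p = 1.58e-05), by 0.87 relative to the rest of the list and by 0.40 (adjusted p = 0.0271) with the cell marker covariates. Exons of Gm21974 overlap Vkorc1 on the same strand, and its counts were not whole in 24 libraries. The carboxylase and the reductase were thus highest in different strains, and over strain means they had r = 0.355 (rho = 0.383; exact permutation p = 0.343 and 0.312, adjusted p of r = 0.392), or -0.21 without NZO/HlLtJ and WSB/EiJ.

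Lman1 and Mcfd2 make the subunits of the receptor that carries factors V and VIII out of the endoplasmic reticulum. Lman1 (ENSMUSG00000041891) measured 447.8, 449.7 and 489.6 CPM in WSB/EiJ and 191.1, 200.0 and 204.7 CPM in 129S1/SvImJ, a 2.33-fold difference (edgeR adjusted p for strain = 9.20e-05). All WSB/EiJ libraries lay above every other library. WSB/EiJ was higher by 0.79 ± 0.13 on the log2 scale (edgeR adjusted p = 6.55e-05), by 0.45 with library totals and by 0.31 relative to the rest of the list. Mcfd2 (ENSMUSG00000024150) measured 327.4, 311.9 and 430.5 CPM in WSB/EiJ and 149.0, 138.8 and 187.4 CPM in CAST/EiJ, a 2.25-fold difference (edgeR adjusted p for strain = 7.42e-05). CAST/EiJ was lower by -0.82 ± 0.16 (edgeR adjusted p = 0.000232) and by -0.63 relative to the rest of the list. Where most genes of the list were low, in NZO/HlLtJ, Mcfd2 was at 320 ± 20.1 CPM (SD, n = 3), and it was called higher there relative to the rest of the list. Over strain means Lman1 and Mcfd2 had r = 0.633 (rho = 0.617; exact permutation p = 0.0676 and 0.0857, adjusted p of r = 0.108), and 0.545 without C57BL/6J and WSB/EiJ. Among libraries of the same strain r was 0.878.

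Of 26 other genes of the pathway, 18 passed the filter and 15 were called for strain (83.3%, against 74.2% of all genes tested). Of the 15, 7 had their highest mean in PWK/PhJ, and the share of all genes with their highest mean there was not computed. Serpine2, protease nexin 1, an inhibitor of thrombin and urokinase, had the largest range, from 0.248 CPM in NZO/HlLtJ to 25.8 CPM in PWK/PhJ (edgeR adjusted p for strain = 6.78e-15), a 104-fold ratio that was 164-fold without NZO/HlLtJ replicate 2. F8, the cofactor made in liver by endothelial cells, ran from 3.20 CPM in NZO/HlLtJ to 13.9 CPM in PWK/PhJ, and Adamts13, the protease that cuts von Willebrand factor, from 0.529 to 8.15 CPM in the same strains. PWK/PhJ replicate 1 raised both means, and without it the ratios of 4.35 and 15.4 were 2.52 and 8.54: the PWK/PhJ libraries measured 25.7, 8.25 and 7.83 CPM for F8 and 15.4, 5.22 and 3.82 CPM for Adamts13. By median, PWK/PhJ and NZO/HlLtJ also had the highest and lowest endothelial and stellate cell marker sums. The stellate sums were 135.2 to 195.6 CPM in PWK/PhJ and 33.05 to 56.29 CPM in NZO/HlLtJ, and their part was not tested. With the cell marker covariates, of Kupffer and endothelial lists only, the PWK/PhJ difference for F8 went from 1.15 to -0.52 on the log2 scale (edgeR adjusted p = 0.0728). For Adamts13 it went from 2.47 to 0.82 (edgeR adjusted p = 0.0619). Gas6, a vitamin K-dependent relative of protein S, ran from 4.26 CPM in WSB/EiJ to 72.5 CPM in C57BL/6J, and Tfpi2, a relative of Tfpi, was at 10.3 CPM in PWK/PhJ and 44.1 CPM in NZO/HlLtJ, against the direction of Tfpi. Fgl1, a liver protein related to fibrinogen, ran from 277 CPM in 129S1/SvImJ to 1076 CPM in A/J, the strains at the ends of the fibrinogen chains. Serping1, the inhibitor of factor XII and kallikrein, was highest in A/J at 1521 CPM and lowest in CAST/EiJ at 638 CPM. The other genes called with at least 2-fold and a mean of at least 1 CPM were F2r, a thrombin receptor, Nqo1 and Anxa2, all highest in PWK/PhJ at 10.3, 16.6 and 5.69 CPM, Plgrkt, a plasminogen receptor, highest in WSB/EiJ at 7.59 CPM, and S100a10, the partner of Anxa2, highest in CAST/EiJ at 56.9 CPM. The ratio of 4.16 for F2r was 2.74 without PWK/PhJ replicate 1. Of 15 regulators of hepatocyte genes, all passed the filter and 10 were called for strain (66.7%, against 74.2% of all genes tested).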

How the data were processed

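RNA of 27 hepatocyte libraries, 3 from each of 9 strains, was sequenced after poly(A) selection with TruSeq RNA v2, per the labels' protocols, a kit that does not mark strand, so reads of overlapping antisense genes cannot be told apart. The authors deposited a table of estimated counts for 43346 genes by Ensembl identifier; FastQC 0.11.5, DESeq2 and the builds GRCm38 and mm10 are named per the submitters' processing notes. The aligner and counter, and whether reads were aligned to strain genomes, are not given in the sources used here, and the effect of strain alleles on counting was not tested. Of the values 11.1% were not whole (tolerance 1e-06). All 27 columns matched a sample and 0 were left over.

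Counts were rounded, which changed library totals by at most 0.00024%. Symbols came from GENCODE M21 for 42462 identifiers. edgeR 4.0.16 (R 4.3.3, limma 3.58.1) was run with filterByExpr, TMM factors and quasi-likelihood F tests in 1 fit of all libraries, with strain as the only term. Strain was tested as a whole and each strain was contrasted with the mean of the other 8. SEs came from the F statistic, and p-values were adjusted by Benjamini-Hochberg over 14482 genes, with calls under 0.05. Partner pairs were correlated over strain means of log2 CPM (prior count 2) with exact two-sided permutation tests. Of 9 pairs planned, 8 were computed, since 1 held Klkb1. The fit was tried on simulated counts with a small part of the genes changed in PWK/PhJ only, which does not bear on the choice of scaling.

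All 35 genes are named, in order of role. Those called for strain whose top strain mean was at least 2-fold the bottom one (at most 4 in a role, those with the largest F) are given by library, with the strain contrast of largest F, and the others by their range. Further contrasts and libraries were added after the values were seen. Other pathway genes could be named where called with at least 2-fold and a mean of at least 1 CPM. The members and lists were chosen with earlier results of these data known. DESeq2 1.42.0, other size factors, filters, a replicate block, cell marker covariates, a GC correction and leaving out each library were tried as alternatives, and library totals and scaling on the median of the list were added after the data were seen. Promoter windows came from RefSeq. Floors cover counting error only, since PCR reads without molecular identifiers are not independent molecules.

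Marker lists checked the cells. Of the genes tested, strain calls were made for 8 of 10 hepatocyte, 10 of 10 Kupffer, 10 of 10 endothelial and 7 of 10 stellate markers. They were made for 2 of 2 cholangiocyte, 2 of 2 mesothelial, 1 of 3 platelet, 1 of 1 lymphocyte and 3 of 5 erythroid markers. Of all genes tested 74.2% were called.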

Additional observations from a re-analysis of the deposited data

How the results depend on the processing

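All 33 genes were called for strain under every other setting and with each library left out, but 27 with library totals and 26 with scaling on the median of the list. Counts per strain moved with the scaling, the cell marker covariates and single libraries. With library totals the counts of higher genes were 8 in A/J, 4 in NOD/ShiLtJ, 2 in NZO/HlLtJ, 11 in WSB/EiJ and 8 in CAST/EiJ, and of lower genes 1 in C57BL/6J, 4 in 129S1/SvImJ, 2 in A/J, 2 in DBA/2J, 9 in NZO/HlLtJ, 2 in WSB/EiJ and 5 in PWK/PhJ. Relative to the rest of the list, higher genes numbered 2 in C57BL/6J, 3 in 129S1/SvImJ, 8 in A/J, 4 in NOD/ShiLtJ, 4 in NZO/HlLtJ, 5 in WSB/EiJ and 6 in CAST/EiJ. Lower genes numbered 1 in C57BL/6J, 0 in 129S1/SvImJ, 2 in A/J, 3 in DBA/2J, 2 in NOD/ShiLtJ, 3 in NZO/HlLtJ and 9 in WSB/EiJ, and Kng1 in WSB/EiJ turned to -0.03. With the covariates, higher genes numbered 0 in C57BL/6J, 7 in A/J, 11 in DBA/2J, 2 in NOD/ShiLtJ, 1 in NZO/HlLtJ (6.94%) and 3 in PWK/PhJ. The covariate fit gave 2 lower genes in 129S1/SvImJ, 2 in NOD/ShiLtJ, 2 in NZO/HlLtJ and 16 in PWK/PhJ. DESeq2 called 17 lower in 129S1/SvImJ (10.8%), 2 in A/J (13.4%) and 1 in NOD/ShiLtJ (7.5%), and the GC correction 2 higher in NOD/ShiLtJ (9.13%). The cause of these shifts was not tested.

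Leaving out 1 library gave 0 to 11 higher genes in C57BL/6J, 6 to 19 in A/J, 1 to 7 in DBA/2J, 0 to 2 in NOD/ShiLtJ and 4 to 8 in PWK/PhJ. Lower genes ranged over 1 to 14 in 129S1/SvImJ, 0 to 1 in A/J, DBA/2J and NOD/ShiLtJ, 8 to 21 in NZO/HlLtJ and 2 to 7 in PWK/PhJ. Shares of all genes by strain and direction were not computed for these fits. The correlation of Kng1 and Kng2 over strain means ran from 0.592 to 0.761, where the highest value, without PWK/PhJ replicate 3, passed the threshold.

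Replicate numbers did not pair the libraries: over 76 pairs with the same number, deviations from strain means had a mean r of 0.0101 (-0.293 to 0.275), against -0.00316 for other numbers, and for 7 of the 27 libraries the closest library of another strain shared the number. With a replicate block 33 genes were called for strain, DBA/2J had 0 lower, CAST/EiJ 1 higher (F3; 3.03% of the list, against 12% of all genes tested) and 4 lower (Habp2, Mcfd2, Pros1 and Proz; 12.1%, against 10%), where F2, F10, Serpinc1, Serpind1, Kng2, Proc and Serpina5 were not called, and 9350 of all genes were called in place of 10746. Depth limits Plat, Serpina5, Thbd and Plau, with few counts per library.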
